A study of Mus musculus with 6 samples.

Results

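The motile cilia genes of airway cells were taken from the count table by name. They were the genes named Dnah, Dnaic, Dnai, Dnaaf, Rsph, Cfap, Tekt or Drc with a number, together with Foxj1, Ccdc39, Ccdc40, Ccdc113 and Tppp3. Of 49315 genes in the table, 68 matched, and the 67 with at least 10 reads in any library are the members described here. The gene left out, Rsph6a, had at most 9 reads in a library. Of the 67, Ccdc113, Cfap99, Rsph1, Rsph14, Tekt1 and Tekt4 reached 10 reads in the BLM unsorted library alone, so that for these 6 the highest library was set by the read minimum. The members comprised 26 Cfap genes, 10 inner arm dyneins, 7 outer arm dynein genes, 7 radial spoke genes, 6 genes of the nexin link and the axonemal ruler, 5 tektins, 4 dynein assembly factors, and Foxj1 and Tppp3.

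The study examined surface Lamp1 as a mark of senescent cells in injured lung. Male C57BL/6J mice, labelled C57BL/6, received bleomycin sulfate (BLM) or, as sham, sterile saline by the oropharyngeal route, and lungs were collected 21 days later. Lungs of 2 to 3 mice were pooled per tube, and polyA RNA was sequenced from unsorted cells and from cells sorted as Lamp1-depleted or Lamp1-enriched. Whether the 3 libraries of a treatment share a pool of mice is not stated. Each of the 6 conditions has 1 library, so every comparison below is between libraries and not between conditions, and no difference between sham and BLM could be checked against replicates.

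Motile cilia beat because rows of dynein motors slide the outer microtubule doublets of the axoneme past each other. Outer arm dyneins supply most of the force, inner arm dyneins shape the stroke, and radial spokes and the nexin-dynein regulatory complex coordinate them. In the lung these cilia sit on multiciliated cells of the airway lining, where they clear mucus, and the transcription factor Foxj1 switches on much of the program.

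Counted reads came to 40742095 for sham unsorted, 39609874 for sham Lamp1-depleted and 45090413 for sham Lamp1-enriched cells. The BLM libraries held 39728284 unsorted, 30236120 Lamp1-depleted and 52918696 Lamp1-enriched reads. Levels are given as CPM, reads per 1000000 counted reads, after TMM scaling, and for each gene or list they follow the order unsorted, Lamp1-depleted, Lamp1-enriched, first for sham and then for BLM. At the floor of 3 reads the level was between 0.0550 CPM in BLM Lamp1-enriched and 0.142 CPM in BLM Lamp1-depleted cells. The BLM Lamp1-depleted library stood apart: the single gene Gm26917, picked out after its values were seen, took 38.4% of its reads, and between 0.884% and 7.10% in the other libraries. Its TMM factor was 0.699, and the other factors ran from 0.993 to 1.19.

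The sort labels were compared with the RNA of 4 surface markers. Lamp1 stood at 319, 146 and 491 CPM in sham and at 501, 111 and 378 CPM in BLM. It was higher in the Lamp1-enriched than in the Lamp1-depleted library of both treatments, but in BLM it was highest in unsorted cells. Ptprc, the pan-leukocyte marker, stood at 462, 2593 and 202 CPM and at 866, 1267 and 173 CPM. Pecam1, an endothelial adhesion molecule, stood at 1123, 400 and 1908 CPM and at 746, 340 and 2009 CPM. Ptprc was thus highest in both Lamp1-depleted libraries and Pecam1 in both Lamp1-enriched libraries. Epcam, an epithelial adhesion molecule, stood at 5.03, 3.86 and 2.26 CPM and at 7.76, 2.60 and 2.77 CPM. Epcam was low in all 6 libraries and highest in the unsorted library of each treatment.

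The members made up a small share of the RNA. They took 0.0411%, 0.0358% and 0.0294% of the reads in sham and 0.0526%, 0.0277% and 0.0289% in BLM. The 0.0277% of BLM Lamp1-depleted cells is of a total in which Gm26917 took 38.4%. After scaling, the members summed to 395.9 CPM there and to 280.5 CPM in BLM Lamp1-enriched cells. Members with at least 10 reads numbered 61, 48 and 53 in sham and 66, 47 and 55 in BLM, and members at 0 reads numbered 0, 2 and 4 in sham and 0, 4 and 1 in BLM. By the minimum of 10 reads, the BLM unsorted library held nearly all members and the Lamp1-depleted library of each treatment the fewest of its 3 libraries. This minimum depends on depth, and the BLM Lamp1-depleted library was the smallest. By level, the median member stood at 1.183 CPM in BLM Lamp1-depleted and at 1.119 CPM in BLM Lamp1-enriched cells. Per kilobase of exon, the median member stood at 0.330, 0.112 and 0.182 CPM in sham and at 0.836, 0.206 and 0.219 CPM in BLM. The most abundant member per kilobase was Tppp3 in 4 libraries, at 34.5 CPM per kilobase in sham unsorted cells, and Cfap43 in the Lamp1-depleted libraries, at 11.2 in sham and 11.7 in BLM. The BLM unsorted library gave the highest level for 50 of the 67 members (74.6%), against 16.2% of the 24474 genes with at least 10 reads. Over the other scalings, and without the BLM Lamp1-depleted library, this number lay between 47 and 51. Among genes with at least 10 reads in a library other than BLM unsorted, a filter added after the data were seen, it did so for 44 of 61 members (72.1%), against 14.7%.

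Some members are known outside motile cilia. Cfap20, Cfap36, Cfap97, Dnaaf2 and Dnaaf5 are expressed in many tissues, and Dnah8, Dnah17 and Tekt5 are known from sperm. All members together summed to 345, 311 and 288 CPM in sham and to 529.6, 395.9 and 280.5 CPM in BLM. Without these 8 genes the sum was 248.6, 155.8 and 180.3 CPM in sham and 432.1, 200.1 and 177.2 CPM in BLM. Leaving out Cfap43, the most abundant member, as well gave 219.7, 76.86 and 152.0 CPM in sham and 390.8, 117.5 and 149.4 CPM in BLM. The BLM unsorted library held the highest sum in each case, as the map of levels by gene shows for most roles.

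**Figure D1:**
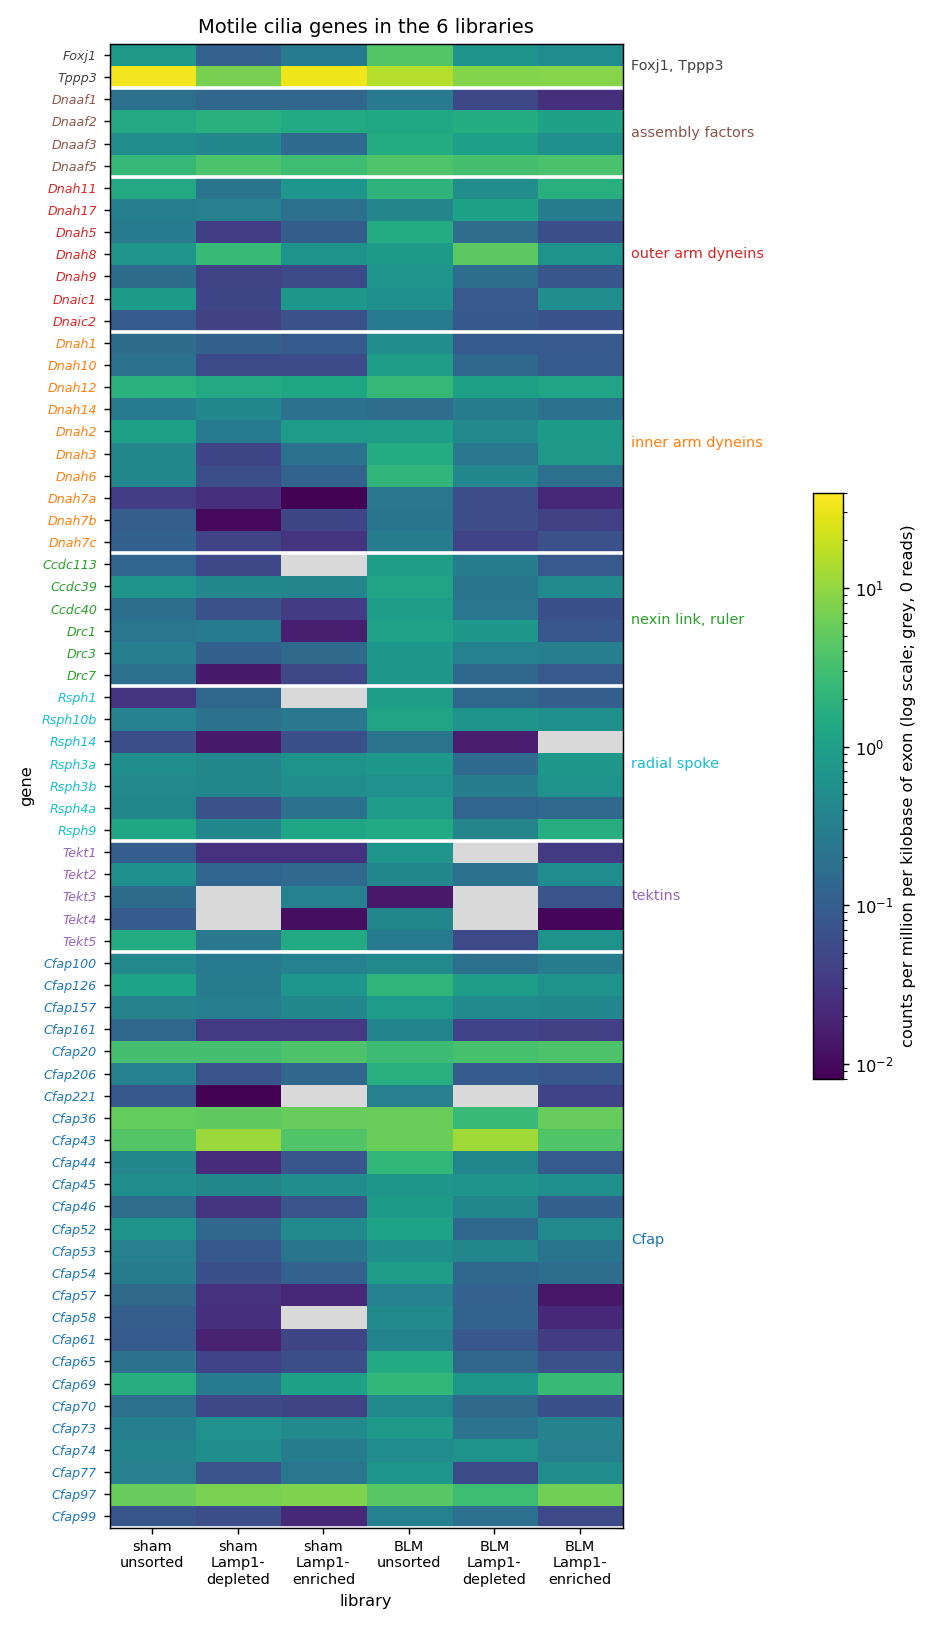
Level of the 67 members in each of the 6 libraries, in CPM per kilobase of exon on a log colour scale, grouped by role, with 0 reads in grey. The BLM unsorted column is the highest for 50 of the 67 genes, and Cfap43 and Dnah8 are highest in the BLM Lamp1-depleted column.

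In unsorted cells most motile cilia genes stood higher in the BLM than in the sham library. Foxj1, the spoke head gene Rsph1, the ruler gene Ccdc40, and the dynein heavy chains Dnah5 and Dnah6 were among them, while Tppp3, Tekt3 and Tekt5 were lower. Of 67 members, 57 had a log2 ratio above 0 and 10 below, with a median of 1.26 against -0.07 over 22772 genes. At least 4-fold higher were 20 members, or 29.9%, against 4.96% of all genes, and at least 4-fold lower were 2, against 4.33%. Of the 20 members, Ccdc113, Cfap99, Rsph1, Tekt1 and Tekt4 had reached 10 reads in BLM unsorted cells alone. Among genes with at least 10 reads in a library outside the pair, also a filter added after the data were seen, 14 of 58 members were at least 4-fold higher (24.1%), against 4.07%, and 2 were lower (3.45%), against 4.04%, with a median of 0.97. The 95% counting interval lay wholly above 0 for 51 members (76.1%), against 32.6% of all genes, and wholly below 0 for 7 (10.4%), against 35.4%. These intervals cover counting error only and carry no spread between mice. In bulk RNA, more cells of a type and more RNA per cell cannot be told apart. Without the 8 genes known from other tissues the median was 1.37 over 59 members. With TMM factors computed without the BLM Lamp1-depleted library the median was 1.18, and 17 members were at least 4-fold apart. Scaling by total counts moved the median of all genes by -0.26 and scaling by total counts outside Gm26917 by -0.18. With total counts the members at least 4-fold apart numbered 12 higher and 2 lower, against 3.67% and 6.21% of all genes, and among all genes past 4-fold the share that was higher went from 53.4% to 37.2%, or 42.1% with the total outside Gm26917.

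**Figure D2:**
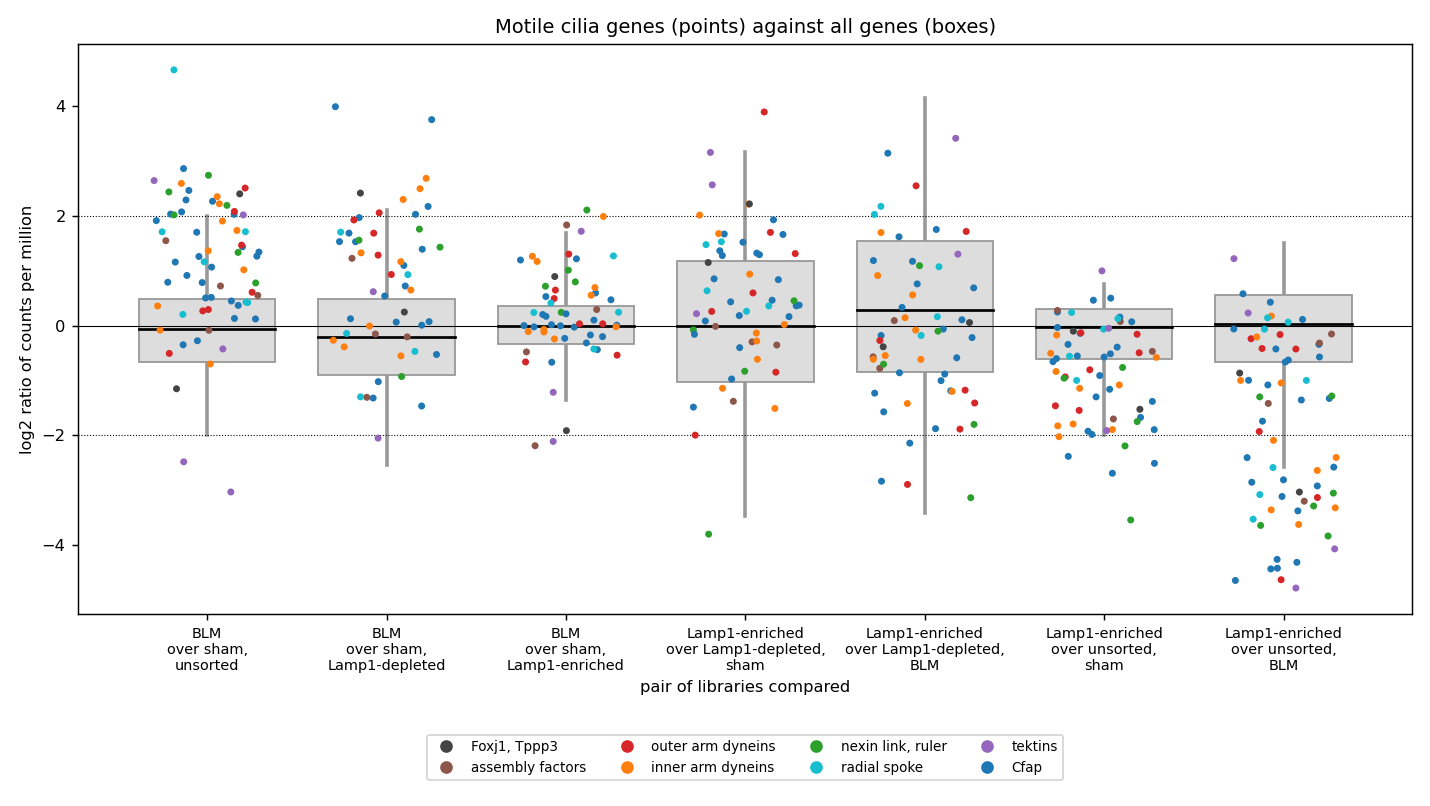
Log2 ratio of CPM for 7 pairs of libraries, with points for the members tested, coloured by role and drawn against the floor of 3 reads where 1 library had 0 reads, and boxes for the quartiles and the median of all genes with whiskers from percentile 5 to percentile 95. The members have a median of 1.26 for BLM over sham unsorted cells and of -1.58 for Lamp1-enriched over unsorted cells in BLM, and dotted lines mark 4-fold.

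Foxj1 (ENSMUSG00000034227, GRCm38 chromosome 11, 116330704 to 116335399, minus strand) stood at 2.02, 0.307 and 0.695 CPM in sham and at 10.7, 1.70 and 1.30 CPM in BLM. It was highest in BLM unsorted cells and higher in each BLM library than in its sham counterpart. The BLM to sham difference was 5.29-fold in unsorted cells (counting interval 4.25 to 6.69), 5.34-fold in Lamp1-depleted cells (2.92 to 11.1) and 1.86-fold in Lamp1-enriched cells. With total counts the median of all genes in Lamp1-depleted cells moved by -0.72 log2. Then 2 of 52 members in place of 9 were at least 4-fold higher there, against 3.09% and 5.36% of all genes. The same shift applies to the Lamp1-depleted ratios of single genes below. Tppp3, a tubulin polymerization protein carried by multiciliated cells, stood at 63.8, 12.8 and 59.6 CPM in sham and at 28.8, 15.2 and 15.8 CPM in BLM. It was highest in sham unsorted and sham Lamp1-enriched cells, and from sham to BLM it ran opposite to Foxj1 in unsorted and Lamp1-enriched cells, but in Lamp1-depleted cells it was 1.19-fold higher in BLM (1.03 to 1.36), or lower with total counts (log2 ratio -0.47). Tppp3 was 2.22-fold lower in BLM unsorted cells (2.07 to 2.38) and 3.77-fold lower in BLM Lamp1-enriched cells (3.49 to 4.07).

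Outer arm dynein genes differed among themselves, with 6 of 7 higher in BLM than in sham unsorted cells, against 46.4% of all genes. Their median log2 ratio was 0.61, and 2 were at least 4-fold higher, against 4.96%. Dnah5 (ENSMUSG00000022262, chromosome 15, 28203752 to 28472052, plus strand), a heavy chain whose loss causes primary ciliary dyskinesia, stood at 4.26, 0.614 and 1.54 CPM in sham and at 24.3, 2.60 and 0.972 CPM in BLM. BLM unsorted cells were far above the rest, and BLM Lamp1-enriched cells were below sham Lamp1-enriched cells. Dnah5 was 5.69-fold higher in BLM than in sham unsorted cells (4.90 to 6.66). Dnah9, the heavy chain of the distal axoneme and chosen after its values were seen, was 4.23-fold higher (3.47 to 5.23). Dnah11, the heavy chain of the proximal axoneme, stood at 19.5, 3.14 and 10.2 CPM in sham and at 29.8, 7.67 and 25.2 CPM in BLM. Its unsorted libraries were close, 1.53-fold apart (1.40 to 1.66), and both Lamp1-depleted libraries were lowest. Dnaic1, an intermediate chain, stood at 2.31, 0.132 and 2.11 CPM in sham and at 1.62, 0.237 and 1.45 CPM in BLM. It was low in Lamp1-depleted cells of both treatments and was 1.42-fold lower in BLM than in sham unsorted cells (1.04 to 1.96). The sperm heavy chains had another pattern, in which Dnah8 stood at 18.4, 65.7 and 16.5 CPM in sham and at 22.5, 125 and 16.9 CPM in BLM. Dnah8 was highest in the Lamp1-depleted library of both treatments, the libraries with the most Ptprc RNA, and the part of leukocyte RNA in this was not tested. Dnah17 stood at 5.13, 5.29 and 2.93 CPM in sham and at 6.19, 17 and 4.60 CPM in BLM, highest in BLM Lamp1-depleted cells.

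Among inner arm dyneins, 8 of 10 stood higher in BLM than in sham unsorted cells, against 46.4% of all genes. Their median log2 ratio was 1.55, and 3 were at least 4-fold higher, against 4.96%. Dnah6, a single-headed inner arm heavy chain, stood at 5.73, 0.834 and 1.61 CPM in sham and at 29.3, 5.44 and 2.37 CPM in BLM. Its BLM unsorted level was 5.10-fold the sham level (4.48 to 5.84), and in Lamp1-depleted cells the ratio was 6.43 (4.49 to 9.69). This ratio, and that of Dnah3 below, come before the shift of -0.72 log2 that total counts gave in Lamp1-depleted cells. Dnah3 stood at 5.89, 0.680 and 2.78 CPM in sham and at 22.1, 3.41 and 11.1 CPM in BLM. It was higher in BLM in every fraction, 3.75-fold unsorted (3.28 to 4.31), 4.93-fold Lamp1-depleted and 3.97-fold Lamp1-enriched. Dnah12 stood at 22.0, 16.1 and 14.7 CPM in sham and at 28.2, 12.4 and 13.7 CPM in BLM, and Dnah2, also an inner arm heavy chain, at 15.1, 4.19 and 13.4 CPM and at 14.3, 6.58 and 12.4 CPM. These abundant inner arm genes were close between the unsorted libraries, at 1.28-fold for Dnah12 and with an interval spanning 0 for Dnah2. Dnah14 stood at 4.41, 6.87 and 3.11 CPM in sham and at 2.71, 4.69 and 3.06 CPM in BLM, the reverse direction. It was 1.62-fold lower in BLM unsorted cells (1.28 to 2.07). Dnah7a, one of 3 mouse copies of an inner arm gene, was 6.03-fold higher in BLM unsorted cells (3.91 to 10.1), from 23 and 115 reads.

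All 6 genes of the nexin link and the axonemal ruler stood higher in BLM than in sham unsorted cells, against 46.4% of all genes. Their median log2 ratio was 2.11, and 4 were at least 4-fold higher, against 4.96%. Among these was Ccdc113, which reached 10 reads in BLM unsorted cells alone. With the read minimum set outside the pair 5 of 5 were higher, with a median of 2.02, and 3 by at least 4-fold, against 4.07%. Ccdc40, which with Ccdc39 sets the spacing of inner arms and spokes, stood at 1.03, 0.395 and 0.217 CPM in sham and at 5.63, 1.37 and 0.385 CPM in BLM. BLM unsorted cells were again highest, 5.42-fold above sham (4.0 to 7.58). Ccdc39 stood at 4.94, 3.07 and 2.91 CPM in sham and at 8.49, 1.61 and 3.45 CPM in BLM, 1.72-fold apart in unsorted cells (1.45 to 2.04) and 1.90-fold lower in BLM than in sham Lamp1-depleted cells. Ccdc113 had 8, 3 and 0 reads in sham and 46, 8 and 6 reads in BLM. It was near the floor everywhere but in BLM unsorted cells, where it was 6.68-fold above sham (3.31 to 17.4). Drc1, a core subunit of the nexin-dynein regulatory complex, stood at 0.618, 0.746 and 0.0435 CPM in sham and at 2.86, 2.04 and 0.220 CPM in BLM. It was lowest in the Lamp1-enriched library of both treatments, with 2 reads in sham, and 4.57-fold higher in BLM than in sham unsorted cells (3.08 to 7.18). Drc3 was 2.52-fold higher (1.88 to 3.46) and Drc7 4.05-fold (2.63 to 6.65).

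Radial spoke genes, which carry signals from the central pair to the dyneins, stood higher in BLM unsorted cells for 7 of 7, against 46.4% of all genes. Without Rsph1 and Rsph14, which reached 10 reads there alone, it was 5 of 5. For Rsph9 the direction turned with total counts (0.21 to -0.06). Rsph1, a spoke head gene, had 2, 9 and 0 reads in sham and 52, 4 and 8 reads in BLM. It was 25.3-fold higher in BLM unsorted cells, with a wide counting interval of 8.42 to 271 set by the 2 sham reads. Rsph9 stood at 2.00, 0.680 and 1.91 CPM in sham and at 2.31, 0.615 and 2.55 CPM in BLM, low in both Lamp1-depleted libraries. Rsph10b stood at 1.09, 0.614 and 0.739 CPM in sham and at 3.60, 2.04 and 1.80 CPM in BLM, and was higher in BLM in every fraction. Rsph3a stood at 1.69, 1.18 and 1.85 CPM in sham and at 2.28, 0.473 and 2.18 CPM in BLM.

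Dynein assembly factors preassemble the arms in the cytoplasm, and 3 of 4 stood higher in BLM unsorted cells, against 46.4% of all genes. None did so by 4-fold, against 4.96%. Dnaaf3 stood at 1.15, 0.921 and 0.348 CPM in sham and at 3.40, 2.18 and 1.27 CPM in BLM, higher in BLM in every fraction and by 2.93-fold in unsorted cells (2.14 to 4.10). The broadly expressed Dnaaf5 stood at 8.12, 12.6 and 9.85 CPM in sham and at 13.4, 11.3 and 12.1 CPM in BLM, and Dnaaf2 at 4.68, 6.05 and 4.93 CPM and at 4.41, 5.25 and 3.54 CPM. Neither had the low levels in sorted cells that most dynein genes showed.

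Of 26 Cfap genes, 24 stood higher in BLM than in sham unsorted cells, against 46.4% of all genes, though Cfap36 and Cfap100 turned below 0 with total counts (-0.13 and -0.14). Their median log2 ratio was 1.21, and 7 were at least 4-fold higher, against 4.96%. Among these was Cfap99, which reached 10 reads in BLM unsorted cells alone. Cfap44 (ENSMUSG00000071550, chromosome 16, 44394796 to 44482428, plus strand), part of the tether that holds an inner arm motor, stood at 3.44, 0.197 and 0.652 CPM in sham and at 19, 3.36 and 0.752 CPM in BLM. Both the unsorted and the Lamp1-depleted library were higher in BLM, 5.52-fold (4.67 to 6.58) and 15.9-fold (8.48 to 38.8), and the Lamp1-enriched libraries were close. Its partner Cfap43 stood at 28.9, 79.0 and 28.2 CPM in sham and at 41.3, 82.6 and 27.8 CPM in BLM. Unlike Cfap44, Cfap43 was highest in Lamp1-depleted cells of both treatments. Cfap65 stood at 1.54, 0.351 and 0.478 CPM in sham and at 11.3, 1.04 and 0.514 CPM in BLM, 7.27-fold higher in BLM unsorted cells (5.72 to 9.48). Cfap46, a central pair protein, stood at 1.57, 0.263 and 0.695 CPM in sham and at 7.71, 3.74 and 1.01 CPM in BLM. It was 4.89-fold higher in unsorted cells (3.82 to 6.42) and 13.5-fold higher in Lamp1-depleted cells (7.70 to 28.7). Cfap69 and Cfap77 differed less, at 1.42-fold and 2.10-fold in unsorted cells. The broadly expressed Cfap20 stood at 14.6, 14.3 and 16.3 CPM in sham and at 12.1, 15.1 and 16.3 CPM in BLM, and Cfap97 at 28.5, 37.1 and 39.4 CPM and at 22.4, 14.9 and 33.5 CPM. Cfap36 stood at 14.6, 13.6 and 15.3 CPM in sham and at 16.0, 6.72 and 15.3 CPM in BLM. None of these 3 stood out in BLM unsorted cells, and Cfap97 and Cfap36 were lowest in BLM Lamp1-depleted cells.

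Tektins, filament proteins inside the doublet wall, split in direction in BLM unsorted cells. At least 4-fold higher were 2 of 5, against 4.96% of all genes, and at least 4-fold lower were 2, against 4.33%. The 2 higher were Tekt1 and Tekt4, which reached 10 reads in BLM unsorted cells alone. Tekt1 had 8, 2 and 2 reads in sham and 43, 0 and 3 reads in BLM, and was 6.25-fold higher in BLM unsorted cells (3.07 to 16.3). Tekt4, chosen after its values were seen, was 4.05-fold higher (1.97 to 10.1). The sperm gene Tekt5 stood at 2.74, 0.439 and 2.65 CPM in sham and at 0.482, 0.0947 and 1.14 CPM in BLM. It was lower in BLM in every fraction, by 5.58-fold in unsorted cells (3.50 to 9.75). Tekt3, also chosen after its values were seen, had 14, 0 and 27 reads in sham and 1, 0 and 7 reads in BLM, an 8.16-fold lower level in BLM unsorted cells with an interval of 1.73 to 481. Tekt2 had 53, 11 and 13 reads in sham and 32, 8 and 52 reads in BLM, with no difference detectable between the unsorted libraries at this depth.

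**Figure D3:**
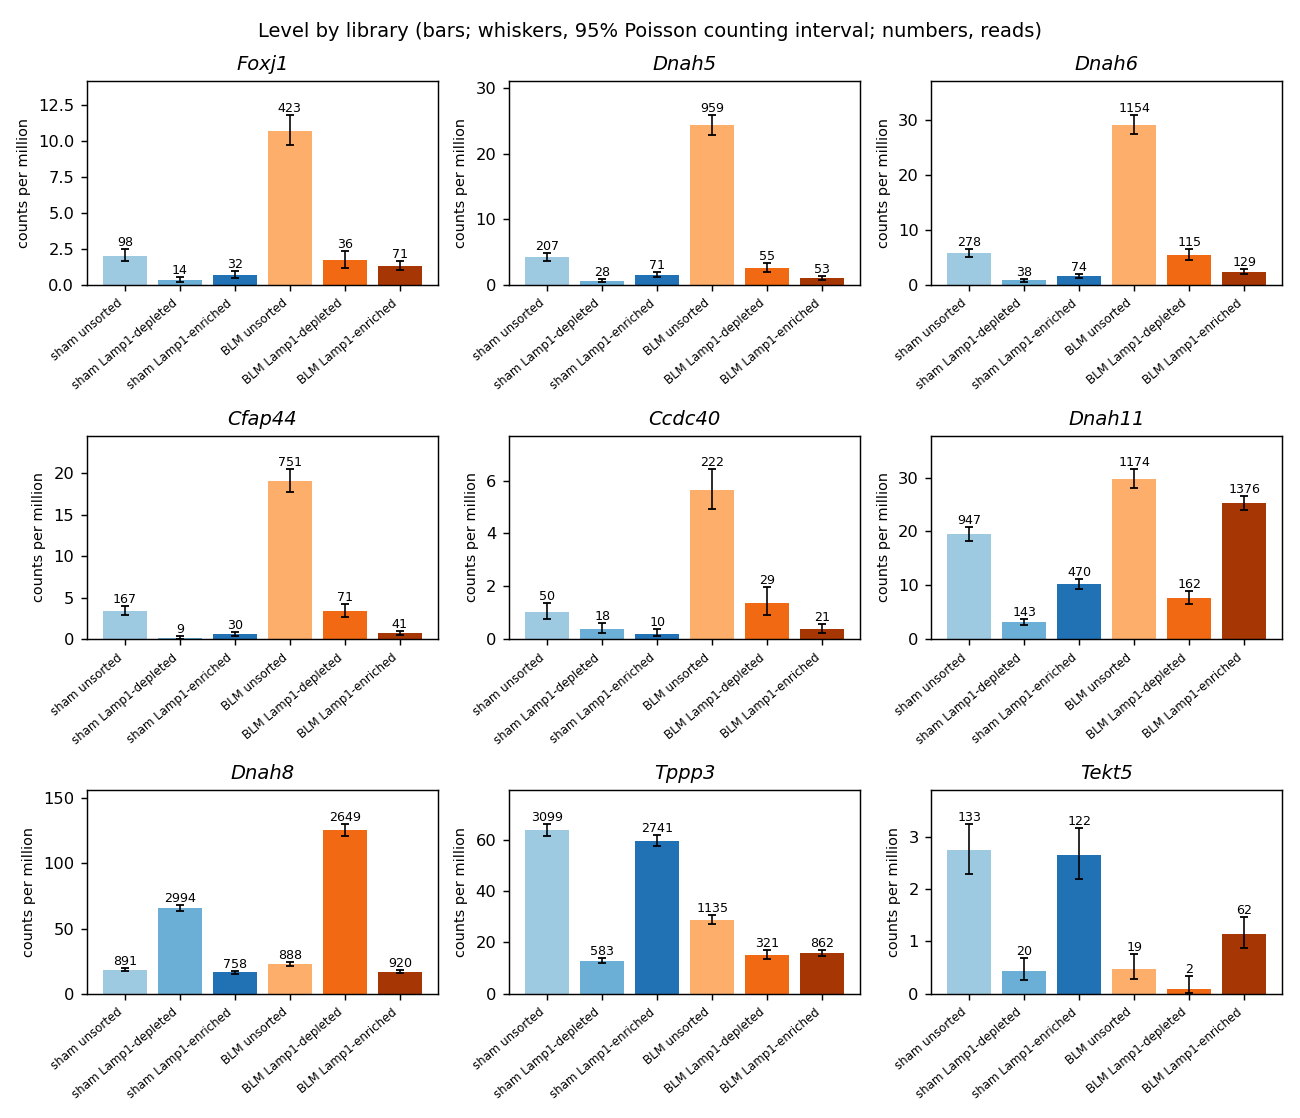
Level of 9 members in CPM by library, as bars with the reads printed above and whiskers for the 95% Poisson counting interval of the single library. Foxj1, Dnah5, Dnah6, Cfap44 and Ccdc40 are highest in BLM unsorted cells, Dnah8 in Lamp1-depleted cells, and Tppp3 and Tekt5 in sham unsorted and sham Lamp1-enriched cells.

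Because many members stood higher together in the BLM unsorted library, the sequence around their start sites was searched for motifs of regulators of ciliated cells. RefSeq GRCm38.p6 promoters, 250 bases before to 50 bases after the start, were found for 54 of the 67 members. None was found for Cfap157, Cfap53, Cfap54, Cfap65, Cfap73, Cfap97, Dnaaf1, Dnah3, Foxj1, Rsph1, Rsph10b, Rsph4a and Tppp3. The letters GTTGCC, a core of the X-box that RFX factors bind, occurred on either strand in 20 of 54 members (37.0%), against 14.1% of 27025 genes. Among the members at least 4-fold higher in BLM unsorted cells 9 of 17 held it, and among the others 11 of 37. Without members that reached 10 reads in BLM unsorted cells alone, the numbers were 6 of 13 and 11 of 36. The longer GTTGCCA, which contains it, occurred in 10 members (18.5%, against 5.02%), and GTTGCCAT in 5 (9.26%, against 1.54%). GTTNCCA, which overlaps GTTGCCA, occurred in 19 (35.2%, against 18.8%). The paired form GTTNCCNNNGNAAC occurred in 5 (9.26%, against 0.936%), and GTTNCCNNGGNAAC in 0 (against 0.529%). The forkhead core TAAACA occurred in 12 (22.2%, against 15.1%), and GTAAACA, which contains it, in 4 (7.41%, against 4.05%). Here the split ran the other way. Of the 17 members at least 4-fold higher, 2 held TAAACA and 0 held GTAAACA, and of the 37 others 10 and 4. GCCAAT occurred in 11 members (20.4%, against 16.7%). A match describes these letters and is not a binding site.

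Of the members at least 4-fold higher in BLM unsorted cells, 9 hold GTTGCC or its reverse complement GGCAAC. The promoters of 5 of them are printed as examples, with the letters set in capitals. Cfap46, Cfap58, Dnah7a and Tekt4 hold the letters too and are not printed. Of the printed genes, Ccdc113 and Tekt1 had reached 10 reads in BLM unsorted cells alone. Each runs from 5′ to 3′ on the strand of its gene in GRCm38.p6. Cfap44, Dnah10 and Tekt1 hold 2 matches each and Ccdc113 and Drc1 hold 1, which lies 6 bases before the start in Ccdc113 and 11 bases before it in Drc1. The windows are chr16:44394549-44394848 on the plus strand for Cfap44, chr5:124724835-124725134 on the plus strand for Dnah10, and chr11:72361833-72362132 on the minus strand for Tekt1. They are chr8:95533850-95534149 on the plus strand for Ccdc113 and chr5:30281143-30281442 on the plus strand for Drc1.
Cfap44: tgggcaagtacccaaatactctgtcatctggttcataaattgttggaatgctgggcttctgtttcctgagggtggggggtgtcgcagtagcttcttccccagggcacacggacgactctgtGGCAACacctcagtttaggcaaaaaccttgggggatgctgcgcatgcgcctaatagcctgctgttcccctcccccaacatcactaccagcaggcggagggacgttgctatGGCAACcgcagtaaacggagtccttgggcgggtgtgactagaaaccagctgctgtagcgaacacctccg
Dnah10: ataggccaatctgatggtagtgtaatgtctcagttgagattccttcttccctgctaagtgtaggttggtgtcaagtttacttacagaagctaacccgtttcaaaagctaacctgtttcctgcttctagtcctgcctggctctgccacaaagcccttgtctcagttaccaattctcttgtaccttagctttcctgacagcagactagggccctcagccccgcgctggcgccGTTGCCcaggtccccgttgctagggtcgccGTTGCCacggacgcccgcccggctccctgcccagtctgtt
Tekt1: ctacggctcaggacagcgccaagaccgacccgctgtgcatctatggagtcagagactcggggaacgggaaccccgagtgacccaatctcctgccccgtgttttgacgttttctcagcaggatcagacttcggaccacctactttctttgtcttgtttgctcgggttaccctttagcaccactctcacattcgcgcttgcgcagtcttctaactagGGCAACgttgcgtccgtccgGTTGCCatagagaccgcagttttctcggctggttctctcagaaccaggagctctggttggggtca
Ccdc113: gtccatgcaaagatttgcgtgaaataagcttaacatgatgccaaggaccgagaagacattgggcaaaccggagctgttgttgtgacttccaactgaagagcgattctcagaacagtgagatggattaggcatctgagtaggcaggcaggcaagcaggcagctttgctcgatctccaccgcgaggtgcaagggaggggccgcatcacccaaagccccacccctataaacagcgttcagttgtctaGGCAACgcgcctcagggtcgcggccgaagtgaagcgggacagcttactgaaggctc
Drc1: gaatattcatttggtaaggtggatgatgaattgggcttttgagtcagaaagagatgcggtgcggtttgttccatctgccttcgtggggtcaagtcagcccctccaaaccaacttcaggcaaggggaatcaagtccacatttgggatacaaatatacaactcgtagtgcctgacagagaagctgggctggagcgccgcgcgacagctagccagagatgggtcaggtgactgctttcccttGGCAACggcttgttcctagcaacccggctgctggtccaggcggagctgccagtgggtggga

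The sorted fractions were then compared between treatments. In Lamp1-depleted cells the BLM library was again higher for most of the members tested, Cfap44, Cfap46, Dnah6, Dnah7b and Foxj1 among them. Of 52 members tested 36 were above 0 and 16 below, with a median log2 ratio of 0.93 against -0.20 over all genes. At least 4-fold higher were 9 members, against 5.36% of all genes, and at least 4-fold lower was 1, Tekt5, against 5.44%. This comparison rests on the BLM library in which Gm26917 took 38.4% of reads. With total counts the median of all genes moved by -0.72, the members' median was 0.23, and 2 members were higher and 3 lower by 4-fold (3.85% and 5.77%), against 3.09% and 14.3% of all genes. The share of higher genes among all calls then went from 49.6% to 17.7%, and with DESeq2 size factors the median of all genes moved by 0.15. The median was 0.13 among members with at least 50 reads.

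In Lamp1-enriched cells the members stood close between treatments. Their median log2 ratio over 57 members was 0.17, against -0.00 over all genes, with 35 above and 22 below 0. At least 4-fold higher was 1 member, Drc1, against 3.15% of all genes, and at least 4-fold lower were 2, Dnaaf1 and Tekt3, against 2.03%. These 3 were near the background share and rested on few reads, such as 2 and 12 reads for Drc1 (4.31-fold, interval 1.13 to 46.6). Outside that count, Dnah3 was 3.97-fold higher (3.29 to 4.86), Dnaaf3 3.57-fold (2.09 to 6.72), Dnah11 2.47-fold (2.22 to 2.75) and Cfap69 2.33-fold (2.07 to 2.63). Tppp3 was the abundant member in the opposite direction.

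The sorted libraries held less motile cilia RNA than the unsorted library of the same treatment. In sham, Lamp1-enriched over unsorted, the median of 61 members was -0.76 against -0.03 over all genes. None was at least 4-fold higher, against 0.421% of all genes, and 6 were at least 4-fold lower (9.84%), against 4.3%. Those with the lowest ratios included Drc1, Cfap44 and Ccdc40, while the 5 broadly expressed members all lay above 0, although Cfap20, Cfap36 and Dnaaf2 turned below 0 with total counts. Scaling by total counts moved the median of all genes by -0.22, by -0.23 outside Gm26917, and 13 members (21.3%) were then at least 4-fold lower under each, against 5.9% and 5.96% of all genes.

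In BLM the same comparison was larger. The median of 66 members was -1.58 against 0.04 over all genes, and 58 of 66 lay below 0. The median moved to -2.40 without the broadly expressed and sperm genes and to -2.58 without members that share sequence or exons with another gene. None was at least 4-fold higher, against 1.91% of all genes, and 31 were at least 4-fold lower (47.0%), against 9.03%. With the read minimum set outside the pair 25 of 61 were (41.0%), against 7.96%. Dnah5 was 24.7-fold lower in BLM Lamp1-enriched than in BLM unsorted cells (19 to 33.6), Cfap44 25-fold (18.5 to 35.6), Cfap65 21.6-fold (15 to 33.5), Ccdc40 14.2-fold (9.32 to 24.1), Dnah6 12.3-fold (10.3 to 14.9) and Foxj1 8.17-fold (6.39 to 10.7). By role the median was -3.17 for nexin link and ruler genes, -2.24 for inner arm dyneins, -1.55 for Cfap genes, -1.0 for spokes and -0.42 for outer arm genes. The spoke value depended on Rsph1 and Rsph14, the median of the other 5 being -0.063. Tekt5 went the other way, 2.33-fold higher in the Lamp1-enriched library (1.39 to 4.18). The abundant Dnah11, Dnah2 and Cfap69 were close, with log2 ratios of -0.24, -0.21 and 0.11.

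The Lamp1-depleted libraries were low as well, in a comparison added after the data were seen. Over unsorted cells, the median of 61 members in sham was -1.81 against -0.03 over all genes. None was at least 4-fold higher, against 6.82%, and 24 were at least 4-fold lower (39.3%), against 18.1%. In BLM the median of 66 members was -1.86 against -0.34. Dnah8 alone was at least 4-fold higher, against 6.54%, though none was with total counts, and 28 were at least 4-fold lower (42.4%), against 13.5%, or 40 with total counts (60.6%), against 22.1%. With the read minimum set outside the pair 24 of 61 were lower (39.3%), against 13.2%. With total counts the median of all genes in this BLM comparison moved by -0.50, with DESeq2 size factors by 0.14, and the share of higher genes among all calls went from 32.6% to 15.8% with total counts.

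Many members were higher in the unsorted library than in either sorted library of the same treatment. In sham this held for 45 of 61 members (73.8%), against 25.7% of all genes, and in BLM for 53 of 66 (80.3%), against 26.4%. By at least 4-fold over both fractions it held for 2 members in sham, against 1.72% of all genes, and for 21 in BLM (31.8%), against 2.44%. Over the other scalings the numbers higher in the unsorted library lay between 45 and 49 in sham and between 53 and 55 in BLM. With the read minimum set in the libraries of the other treatment, the unsorted library was above both fractions for 49 of 66 in sham (74.2%) and for 47 of 61 in BLM (77%), against 25.8% of all genes in each, and by at least 4-fold in BLM for 17 (27.9%), against 2.19%. Sorting, the mice pooled and any other step that set sorted and unsorted libraries apart cannot be told apart.

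Between the fractions the members had no common direction. In sham, Lamp1-enriched over Lamp1-depleted, the median of 56 members was 0.40 against -0.01 over all genes, with 38 above and 18 below 0. At least 4-fold higher were 6 (10.7%), against 15.1% of all genes, and at least 4-fold lower was 1, Drc1, against 12.4%. The 6 higher members were Dnaic1, Tekt5, Tppp3, Dnah7b, Dnah3 and Tekt3. Tekt3 had 0 reads in the Lamp1-depleted library and was 8.92-fold higher against the floor of 3 reads, with a counting interval that starts at 6.77-fold. Scaling by total counts moved the median of all genes by -0.17, by -0.21 outside Gm26917, and each left 5 members higher and 2 lower (8.93% and 3.57%), against 13.4% and 13.9% of all genes with total counts and 13% and 14.3% outside Gm26917. In BLM the median of 56 members was -0.18 against 0.29 over all genes, with 24 above and 32 below 0, and with total counts it turned to 0.38. At least 4-fold higher were 5 (8.93%), against 15.4% of all genes, and at least 4-fold lower were 4 (7.14%), against 12.0%. Both counts were below the background shares. The median of all genes moved by 0.55 with total counts, by -0.15 with DESeq2 size factors and by -0.12 outside Gm26917. The members then numbered 9 higher and 3 lower, against 23.5% and 8.61% of all genes, 4 and 6, against 13.6% and 13.1%, and 4 and 5, against 14.0% and 12.8%, and with total counts the share of higher genes among all calls went from 56.3% to 73.2%.

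**Figure D4:**
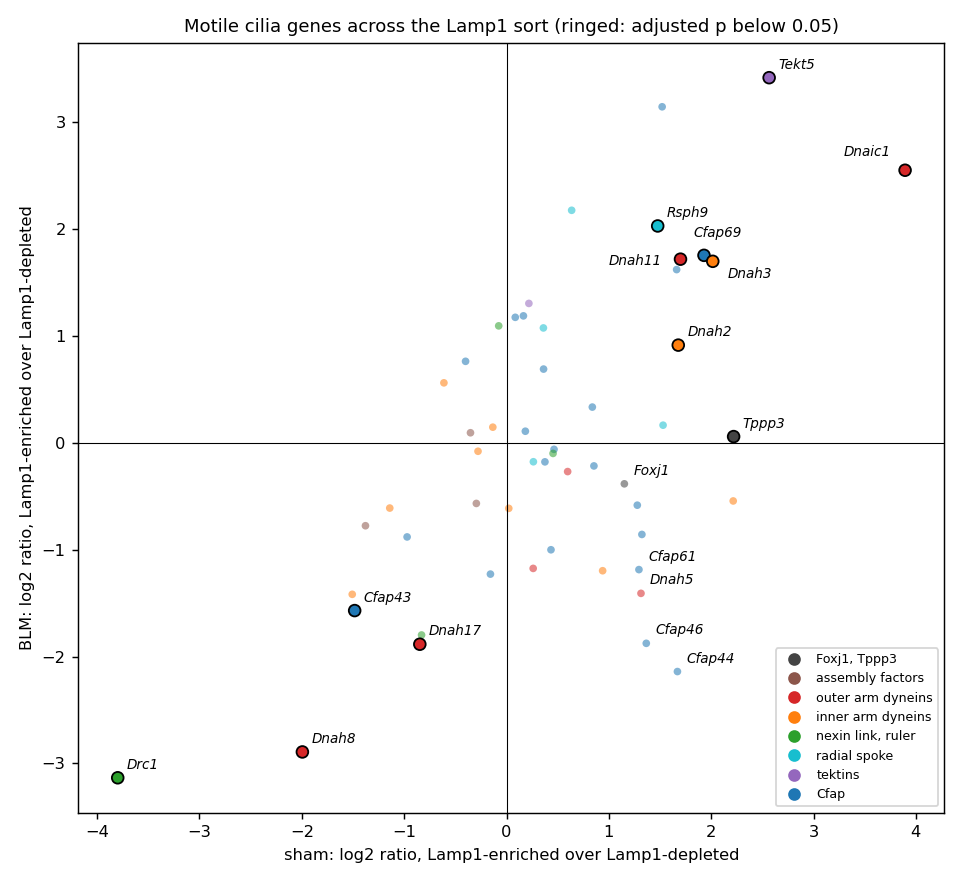
Log2 ratio of Lamp1-enriched over Lamp1-depleted cells in sham (horizontal) and in BLM (vertical), 1 point per member tested in both, with rings around the 12 members at an adjusted p under 0.05. Dnah5, Cfap44, Cfap46 and Cfap61 lie above 0 in sham and below 0 in BLM, and the BLM value of Tppp3, 0.06, turns below 0 with DESeq2 size factors and outside Gm26917.

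The fractions were tested with the edgeR quasi-likelihood model on the 4 sorted libraries, in which the treatments act as replicates of the sort. Of 55 members tested, 8 were higher and 4 lower in Lamp1-enriched cells at an adjusted p under 0.05, against 22.5% higher and 17.2% lower of 20593 genes. At an unadjusted p under 0.05 there were 13 members. The DESeq2 Wald test of the same model called 6 higher and 4 lower, against 20.1% and 17.6% of all genes. All 12 called members had the same direction in both treatments, which the test favours because the treatments are its only replicates. The BLM ratio of Tppp3, 0.06, turned to -0.09 with DESeq2 size factors and to -0.06 outside Gm26917.

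Dynein genes were 4 of the 8 higher and 2 of the 4 lower members. Dnaic1 was higher by a log2 difference of 3.32 (SE 0.895, adjusted p = 0.00114), with ratios of 14.9-fold in sham (7.10 to 44.7) and 5.85-fold in BLM (2.52 to 19.4). Dnah3 was higher by 1.86 (SE 0.506, adjusted p = 0.00131), Dnah11 by 1.71 (SE 0.402, adjusted p = 0.000164) and Dnah2 by 1.30 (SE 0.420, adjusted p = 0.00763), each in both treatments. Cfap69 was higher by 1.84 (SE 0.428, adjusted p = 0.000131), Tekt5 by 2.92 (SE 0.847, adjusted p = 0.00261) and Rsph9 by 1.75 (SE 0.702, adjusted p = 0.0350), also in both treatments. Tppp3 was higher by 1.15 (SE 0.385, adjusted p = 0.0103), but its BLM log2 ratio had a counting interval that spanned 0 (-0.129 to 0.247). Rsph9 and Tppp3 no longer passed in the DESeq2 test, with adjusted p of 0.0663 and 0.0737. The lower members in both treatments were Dnah8 at -2.44 (SE 0.369, adjusted p = 2.71e-09), Cfap43 at -1.53 (SE 0.353, adjusted p = 0.000123), Drc1 at -3.51 (SE 1.01, adjusted p = 0.00253) and Dnah17 at -1.37 (SE 0.444, adjusted p = 0.00753). Foxj1 did not pass (0.35, SE 0.802, adjusted p = 0.766), its log2 ratio being 1.15 for sham and -0.38 for BLM, the latter turning to 0.17 with total counts. Without the treatment block only 3 members passed, 1 higher and 2 lower, against 13.7% and 10.4% of all genes. With total counts 7 passed, 5 higher and 2 lower, against 14% and 7.59% of all genes.

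Other genes of the axoneme were compared in the same way. Of 115 further axonemal and multiciliated cell genes, 109 were in the table and 105 could be compared in unsorted cells, where the median log2 ratio of BLM over sham was 1.36, 26 were at least 4-fold higher, against 4.96% of all genes, and none lower, against 4.33%. With the read minimum set outside the pair, 23 of 90 were higher, against 4.07% of all genes. The central pair protein Hydin, chosen after its values were seen, stood at 3.48, 0.658 and 1.37 CPM in sham and at 16.6, 3.17 and 1.12 CPM in BLM. Like Dnah5 it was highest in BLM unsorted cells, 4.74-fold above sham. The list's most abundant gene, the tubulin Tuba1a, is not confined to cilia and stood at 403, 165 and 686 CPM in sham and at 208, 69.8 and 597 CPM in BLM. Tuba1a was lower in BLM unsorted cells (log2 ratio -0.96), and Tubb4b and Ruvbl2 were close between treatments (-0.18 and -0.12). The summed list, carried by Tuba1a, stood at 700, 389 and 1011 CPM in sham and at 645, 267 and 889 CPM in BLM, while without Tuba1a the sum was 297.2, 223.4 and 325.4 CPM in sham, highest in Lamp1-enriched cells, and 436.9, 197.4 and 292.1 CPM in BLM, highest in unsorted cells, and Pih1d3 had 0 reads in every library. From BLM unsorted to BLM Lamp1-enriched cells 53 of 104 list genes were at least 4-fold lower, against 9.03% of all genes. In the test between fractions 9 of 76 were higher and 7 lower, against 22.5% and 17.2% of all genes, shares that apply to the lists below as well.

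Regulators of ciliogenesis were mixed. Of 15 compared in unsorted cells, 1 was at least 4-fold higher in BLM, against 4.96% of all genes. With the read minimum set outside the pair it was 0 of 15, against 4.07%. The gene was Trp73, a p53 family factor upstream of Foxj1 that was chosen after its values were seen. It had 8, 2 and 1 reads in sham and 46, 2 and 6 reads in BLM. Trp73 was 6.68-fold higher in BLM unsorted cells, where alone it reached 10 reads. The early inducers Gmnc and Mcidas, also chosen after their values were seen, had 0 reads in BLM unsorted cells, with 12 and 2 reads in sham unsorted cells. E2f4, the regulator with the highest mean over the 6 libraries, stood at 35.4, 52.2 and 42.2 CPM in sham and at 41.5, 70.7 and 39.9 CPM in BLM, highest in Lamp1-depleted cells. Rfx3, a factor that binds the X-box, stood at 32.7, 61.5 and 31.3 CPM in sham and at 22.4, 35.7 and 26.9 CPM in BLM, and Rfx1 at 23.9, 47.5 and 24.1 CPM and at 25.9, 62.5 and 24.3 CPM. RNA of Rfx3 was lower in BLM unsorted cells (log2 ratio -0.55, interval -0.67 to -0.43) and that of Rfx1 was close (0.12). The list summed to 158, 275 and 164 CPM in sham and to 182, 318 and 168 CPM in BLM. Its test between fractions called 1 of 13 higher and 5 lower. Intraflagellar transport genes, which build both motile and primary cilia, did not share the BLM difference. Of 40, none was 4-fold apart in unsorted cells, against 4.96% higher and 4.33% lower of all genes, and the median was -0.09. They summed to 509.5, 409.8 and 529.8 CPM in sham and to 504.6, 449.5 and 519.2 CPM in BLM, with Bbs9 highest by the mean over the 6 libraries, and 15 of 39 were higher and 4 lower in Lamp1-enriched cells.

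Markers of other lung cells were read beside these values, where the gene named as highest on average has the highest mean over the 6 libraries and need not be highest in each, and their 4-fold counts in unsorted cells stand against 4.96% higher and 4.33% lower of all genes. Club and goblet cell genes, neighbours of multiciliated cells in the airway, summed to 322.3, 51.7 and 247 CPM in sham and to 316.5, 132 and 128 CPM in BLM, with Sec14l3 highest on average. Their median in unsorted cells was -0.08 over 17 genes, with none at least 4-fold higher and 1 lower. Scgb1a1, the club cell secretoglobin, stood at 96.7, 13.8 and 61.8 CPM in sham and at 69.9, 47.5 and 23.9 CPM in BLM, the opposite direction to Foxj1 in unsorted cells. Basal cell genes summed to 322.5, 95 and 448 CPM in sham and to 366.3, 124 and 496.5 CPM in BLM, with Bcam highest on average, without which the BLM sum was highest in unsorted cells, and 2 of 9 were at least 4-fold higher in BLM unsorted cells. The defining basal keratin Krt5 had 8, 2 and 2 reads in sham and 17, 6 and 49 reads in BLM, and Krt17 had 0 reads in all 3 sham libraries. Neuroendocrine and tuft cell genes summed to 17.6, 9.37 and 10.95 CPM in sham and to 27.6, 11.6 and 16.3 CPM in BLM, with Ltc4s highest on average, and 1 of 9 was higher and 2 lower in BLM unsorted cells by 4-fold. Without Ltc4s the unsorted sum was slightly lower in BLM, at 14.38 CPM in sham and 13.41 CPM in BLM. General epithelial genes summed to 80.7, 23.3 and 51.3 CPM in sham and to 143, 45.9 and 71.1 CPM in BLM. Cdh1, their highest gene on average, was 2.17-fold higher in BLM unsorted cells, and 1 of 12 was at least 4-fold higher.

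Alveolar type 2 genes summed to 1731, 457 and 1219 CPM in sham and to 464, 234 and 394 CPM in BLM, with Sftpc highest on average, and 4 of 12 were at least 4-fold lower in BLM unsorted cells. Alveolar type 1 genes summed to 3157, 484 and 4232 CPM in sham and to 1458, 389 and 3030 CPM in BLM, with Clic5 highest on average, and 1 of 12 was at least 4-fold lower. The alveolar lists were therefore lower in BLM unsorted cells, the opposite of the motile cilia genes. Macrophage genes summed to 524, 218 and 147 CPM in sham and to 3181, 314 and 420 CPM in BLM, with Chil3 highest, and 9 of 11 were at least 4-fold higher in BLM unsorted cells. General leukocyte genes, with Lyz2 highest on average, summed to 2881, 6824 and 1282 CPM in sham and to 19690, 5188 and 2644 CPM in BLM, with 3 of 12 at least 4-fold higher. Without Lyz2 they summed to 885.4, 5575 and 476.2 CPM in sham and to 2451, 2800 and 454.7 CPM in BLM, highest in Lamp1-depleted cells of both treatments. Macrophage RNA was thus highest in the library with the highest motile cilia RNA, and its part in that result was not tested.

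Endothelial genes summed to 7407, 1645 and 13020 CPM in sham and to 4646, 1174 and 13140 CPM in BLM, with Cdh5 highest on average and none of 12 at least 4-fold apart in unsorted cells. Fibroblast genes summed to 920, 154 and 469.7 CPM in sham and to 1022, 235 and 1051 CPM in BLM, with Col1a1 highest on average, and 1 of 12 was higher and 2 lower by 4-fold. Without Col1a1 the unsorted sum was lower in BLM, at 827.7 CPM in sham and 606.5 CPM in BLM. Mesothelial genes summed to 57.0, 10.4 and 19.5 CPM in sham and to 64.6, 11.9 and 27.0 CPM in BLM, with Krt19 highest and none of 9 at least 4-fold apart. In the test between fractions, all 12 endothelial, all 12 type 1, 8 of 12 type 2, 10 of 12 fibroblast and 6 of 12 general epithelial genes were higher in Lamp1-enriched cells, against 22.5% of all genes. Higher there too were 4 of 14 club and goblet, 3 of 8 basal, 2 of 9 neuroendocrine and tuft, and 3 of 9 mesothelial genes. Lower there, against 17.2% of all genes, were 10 of 12 leukocyte genes, 4 neuroendocrine and tuft genes, 2 club and goblet, 2 basal, and 1 each of the type 2, fibroblast and macrophage lists.

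**Figure D5:**
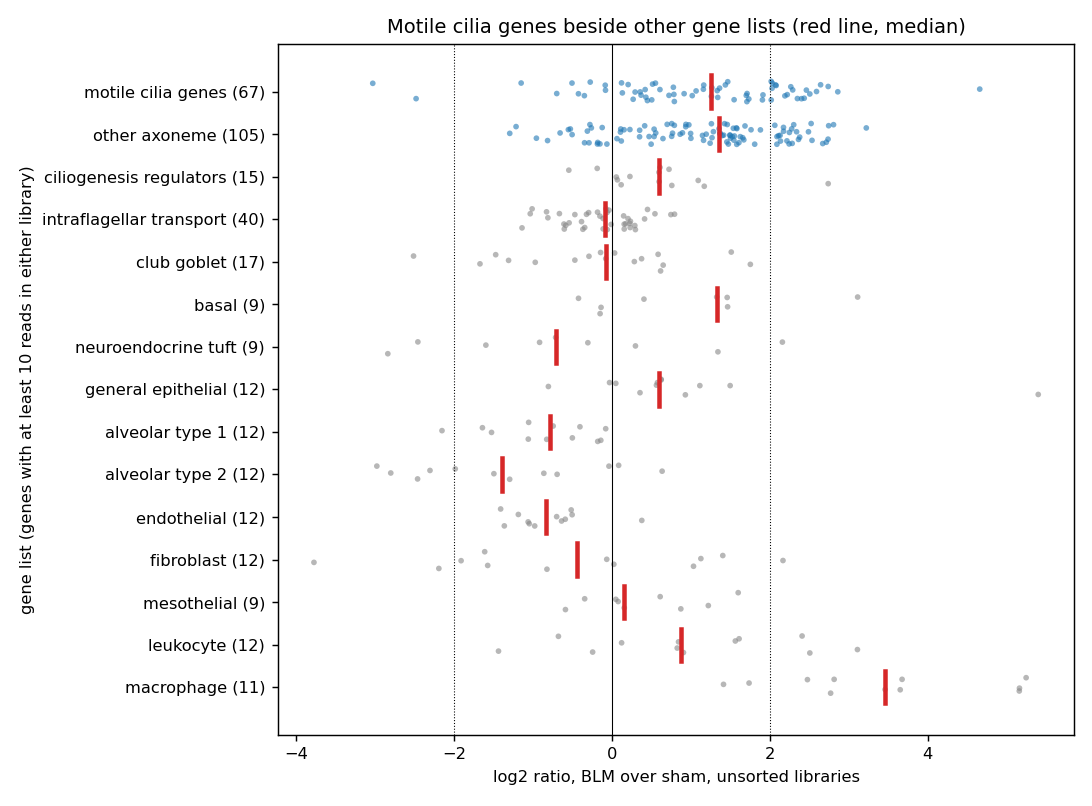
Log2 ratio of BLM over sham unsorted cells for each gene of 15 lists, with a red line at the median, dotted lines at 4-fold and the number of genes in brackets, where Gmnc and Krt17, at 0 reads in 1 of the unsorted libraries, are counted but not drawn. Medians are 1.26 for the members, 1.36 for other axonemal genes, -0.09 for intraflagellar transport and 3.46 for macrophage genes.

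Some members cannot be separated fully from other genes. Words of 100 bases shared with another gene made up 51.3% of the exon sequence of Rsph3b, 44.7% of Rsph3a, 36.9% of Dnaaf2, 23.9% of Dnah7c, 19.1% of Dnah7a and 14.4% of Dnah7b. The values of these 6 genes are uncertain for reads that match more than 1 gene. The strand setting of the counts is not stated, so that reads of an overlapping gene on the opposite strand cannot be told apart, which bears most on the members with at least 10% of exon bases overlapped by other genes, Dnaaf2 (71.4%), Tekt2 (20.8%), Dnaaf1 (20.7%), Ccdc39 (16.9%), Dnaaf3 (16.5%), Cfap157 (10.62%), Dnaaf5 (10.61%) and Dnah3 (10.5%). In Rsph10b (15.7%) the overlapping gene lies on the same strand.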

How the data were processed

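Raw read counts per gene of 6 libraries were used as deposited by the authors, who trimmed with Trimmomatic 0.36, aligned with STAR 2.5.2b to GRCm38 and counted with featureCounts of Subread 1.5.2. Members and lists were chosen with earlier results of these data known. Gene positions and exon lengths came from GENCODE release M21, which held all 67 members. Scaling was TMM in edgeR 4.0.16 under R 4.3.3. Log2 ratios, computed in Python 3.11.15 with scipy 1.17.1, added 0.5 reads, cover genes for which the larger of both counts was 10 or more, and carry a 95% Clopper-Pearson interval. A library at 0 reads was set to a floor of 3 reads for 4-fold counts. The quasi-likelihood test used the 4 sorted libraries and a treatment block, left 1 residual degree of freedom, so that spread was pooled across genes, and was adjusted by Benjamini-Hochberg over 20593 genes. DESeq2 1.42.0 gave other size factors and a Wald test. The programs were tested on simulated data. Genes were named by a rule: Foxj1, Ccdc39, Ccdc40, Ccdc113 and Tppp3, the 3 highest members per role, the 3 highest and 3 lowest ratios per comparison among members with at least 50 reads, and the 3 highest genes of each list, of which the text names some. All other named genes were chosen after their values were seen.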

Additional observations from a re-analysis of the deposited data

Results flagged for a closer look

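In 5 cases a member differed at least 2-fold in one direction in one pair of libraries and at least 2-fold in the other direction in the matching pair, with counting intervals on both sides of 0. Lamp1-enriched over Lamp1-depleted, the log2 ratio of Cfap44 was 1.67 for sham but -2.14 for BLM, and Cfap46 had 1.37 and -1.88. For Dnah5 the ratios were 1.31 and -1.41, and for Cfap61 they were 1.29 and -1.19. These 4 were among 54 members tested in both treatments, and 1.11% of 20463 genes had such opposite ratios. The BLM ratios rest on the library in which Gm26917 took 38.4% of reads. With total counts Dnah5 at -0.85 and Cfap61 at -0.64 no longer reached 2-fold in BLM, which left 2 of the 4, against 2.1% of genes. With total counts outside Gm26917 Cfap61 dropped out, and with DESeq2 size factors Cfap53 joined the 4. BLM over sham, Cfap73 had a ratio of 1.27 in unsorted and -1.46 in Lamp1-depleted cells, from 28 and 4 BLM reads, as 1 of 52 members, where 1.42% of 19696 genes did, and with DESeq2 size factors it dropped out. With 1 library per condition, none of these differences was tested.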

How the results depend on the processing

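Settings were changed one at a time: DESeq2 size factors, total counts, total counts outside Gm26917, counts thinned to the smallest library, a prior of 2 reads, minimums of 1 or 50 reads and a fold of 2. Leaving out broadly expressed and sperm genes, or members that share sequence or exons with another gene, setting the minimum of 10 reads in libraries outside those compared, and the counts of opposite directions, were added after the data were seen. Of the medians under these settings 85 lay between the median lower and the median upper bound of the members' own intervals, 4 moved outside and 2 turned in direction. That range is the width for a typical single gene and not the counting error of a median. Of the counts 112 lay within 1.5 times and 22 did not. Among ratios of single genes 1475 stayed within their interval, 29 of them with the other sign, and 125 left it, 19 of them with the other sign. None of those that changed sign had been past 4-fold. With total counts the BLM over sham ratio in Lamp1-depleted cells went from 0.65 to -0.069 for Dnah2 and from 0.25 to -0.47 for Tppp3.

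The median for Lamp1-enriched over Lamp1-depleted cells in BLM, -0.18, turned to 0.38 with total counts, which shifts all genes alike, and to 0.076 with at least 50 reads. The BLM over sham median in Lamp1-depleted cells, 0.93, moved to 0.23 with total counts and 0.13 with at least 50 reads. The median for Lamp1-enriched over unsorted cells in BLM, -1.58, moved to -2.40 without broad and sperm genes and to -2.58 without sharing members.

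With total counts the number past 4-fold went from 22 to 14 for BLM over sham unsorted, from 10 to 5 for Lamp1-depleted, and from 6 to 13 for sham Lamp1-enriched over unsorted cells, the last also to 13 outside Gm26917. With a prior of 2 the Lamp1-depleted count went to 6 and the BLM over sham Lamp1-enriched count from 3 to 0. With at least 50 reads these 2 counts were 5 and 0, and the sham counts were 4 in place of 7 for Lamp1-enriched over Lamp1-depleted and 2 in place of 6 for Lamp1-enriched over unsorted cells, with fewer genes tested. A fold of 2, by construction wider, gave 26 for Lamp1-enriched over Lamp1-depleted in sham and 29 (from 9) in BLM, 24 for Lamp1-enriched over unsorted in sham, and 41, 31 and 15 for BLM over sham in unsorted, Lamp1-depleted and Lamp1-enriched cells. For Lamp1-depleted over unsorted cells it gave 39 (from 24) in sham and 51 (from 29) in BLM. All genes spread widely too. Lamp1-enriched over Lamp1-depleted, their quartiles ran from -1.018 to 1.185 in sham and from -0.84 to 1.54 in BLM. Shares of all genes with a fold of 2, a prior of 2 or at least 50 reads are not given, so these counts show the effect of a setting only. Members in opposite directions numbered 2 with total counts in place of 4 between treatments, and 0 with DESeq2 size factors in place of 1 for BLM over sham. The 12 members called between fractions became 7 with total counts and 3 without the treatment block. The calls among all genes fell as well, from 22.5% higher and 17.2% lower to 14% and 7.59% with total counts. Without the block they fell to 13.7% and 10.4%. Fitted to all 6 libraries the test called 13 of 63 members, 9 higher and 4 lower, against 21.2% and 16.2% of all genes. Leaving out a sorted library left 1 library in a fraction, so no counts are given for such fits. Beyond what the settings fix, the cause was not tested.

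With 1 library per condition, intervals hold counting error alone, and a difference between mice, pools or preparations cannot be told apart from one of treatment. Members with few reads, such as Rsph1, Ccdc113, Tekt1, Tekt3 and Tekt4, have wide intervals, and a fold against 1 to 9 reads is set by those reads.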
